A study of Homo sapiens with 6 samples.

Results

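The genes described here are 51 named genes of MHC class I antigen presentation and of the proteasome, out of 60569 gene names in a bulk RNA-seq table of MDA-MB-453 cells. Each is the row whose gene name equals a listed symbol. The list was chosen with earlier results of these data known, and none of the 51 names occurred in more than 1 row. The list was split into 21 genes of the class I pathway and immunoproteasome, and 30 genes of the constitutive proteasome. The first set holds the heavy chains, B2M, the genes of peptide transport, trimming and loading, the MHC transactivators, CD74, 3 immunoproteasome subunits and the activators PSME1 and PSME2. The second holds the 14 subunits of the 20S core, 14 subunits of the 19S particle, the activator PSME3 and the assembly chaperone POMP.

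MDA-MB-453 is an established human breast cancer line of luminal character that expresses the androgen receptor and ERBB2. The cells were transfected either with a control vector (3 libraries) or with a ZNF207-overexpression construct (3 libraries), and the design text calls the 3 of each group independent biological replicates. ZNF207 encodes a zinc finger protein of the mitotic spindle that partners the checkpoint protein BUB3. The sources used here do not give the type of transfection, the promoter of the construct, the time of harvest, the share of cells that took up DNA or whether a line was cloned. No interferon or proteasome inhibitor is named in the labels of either group. The table's columns carry names other than the sample titles, so the assignment of each library to its group and replicate rests on those column names.

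The proteasome is a cylinder of stacked rings, the 20S core, whose β rings cut proteins and whose α rings gate entry, capped by the 19S particle that recognises and unfolds ubiquitinated proteins. Some of the peptides it releases are carried into the endoplasmic reticulum by TAP1 and TAP2, trimmed by ERAP1 and ERAP2, and loaded by tapasin, calreticulin and calnexin onto class I heavy chains paired with B2M. Interferon signalling induces PSMB8, PSMB9 and PSMB10, which replace PSMB5, PSMB6 and PSMB7 in newly assembled cores to form the immunoproteasome. NLRC5 is the transactivator of class I genes, and CIITA that of class II genes.

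The libraries were alike in total FPKM (fragments per kilobase of transcript, corrected for the number of fragments mapped), from 589360 to 612711, and in genes at 1 FPKM or more, from 13061 to 13231. ZNF207 itself was at 69.2, 67.0 and 63.7 FPKM with the control vector and at 885, 786 and 750.0 FPKM with the construct, and the table does not separate construct from endogenous transcripts. All 10 luminal epithelial markers were present, with sums of 7410 to 7757 FPKM in controls and 7131 to 7166 FPKM with the construct. Of 12 leukocyte and antigen-presenting cell markers 0 reached 1 FPKM in any library, CD2 and MS4A1 were listed at 0 in all, and their sums were 0.537 to 1.06 FPKM in controls and 0.620 to 0.752 FPKM with the construct. Of 9 fibroblast and endothelial markers, COL1A1 alone reached 1 FPKM, and the sums were 9.97 to 11.8 and 8.47 to 10.8 FPKM. These are bulk values, in which fewer cells expressing a gene and less RNA per cell cannot be told apart.

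No member passed the test, and the 4 lowest adjusted p were those of PSMB9, TAP1, NLRC5 and TAP2, which were higher in all 3 ZNF207 libraries than in any control. The test was limma's moderated test on log2(FPKM + 1), two-sided, with Benjamini-Hochberg adjustment over the 13185 genes that reached 1 FPKM in at least 3 of the 6 libraries. It called 28 genes at an adjusted p under 0.05, 0.212% of those tested, and 0 of the 48 members that could be tested. An unadjusted p under 0.05 was reached by 13 higher and 0 lower members, against 5.08% of all tested genes higher and 7.03% lower. In 16 members all 3 ZNF207 libraries lay above all 3 controls, and in 0 all lay below, against 7.61% and 10.4% of all tested genes. Estimates were above 0 for 38 members and below 0 for 10, against 47.6% of all tested genes above 0. The median log2 change of the members was 0.06. Over all tested genes the median was -0.01.

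The class I and immunoproteasome set had 18 tested genes, of which 9 were higher at an unadjusted p under 0.05, against 5.08% of all tested genes. In 9 all ZNF207 libraries lay above all controls, against 7.61% of all tested genes. The median log2 change of the set was 0.16, its range -0.11 to 0.48, and 8 of its estimates were over 0.2. Without the second control the median was 0.094. The lowest adjusted p in the set was 0.0714 by limma. The constitutive set had 30 tested genes. Of these, 4 were higher at an unadjusted p under 0.05 and 7 did not overlap, against the same 5.08% and 7.61%. Its median log2 change was 0.04, or 0.027 without the first control or the first ZNF207 library, and its range -0.11 to 0.15. None of its 30 estimates was over 0.2, and its lowest adjusted p was 0.317 by limma. No test of the difference between the sets was made, since members of a set are not replicates.

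**Figure D1:**
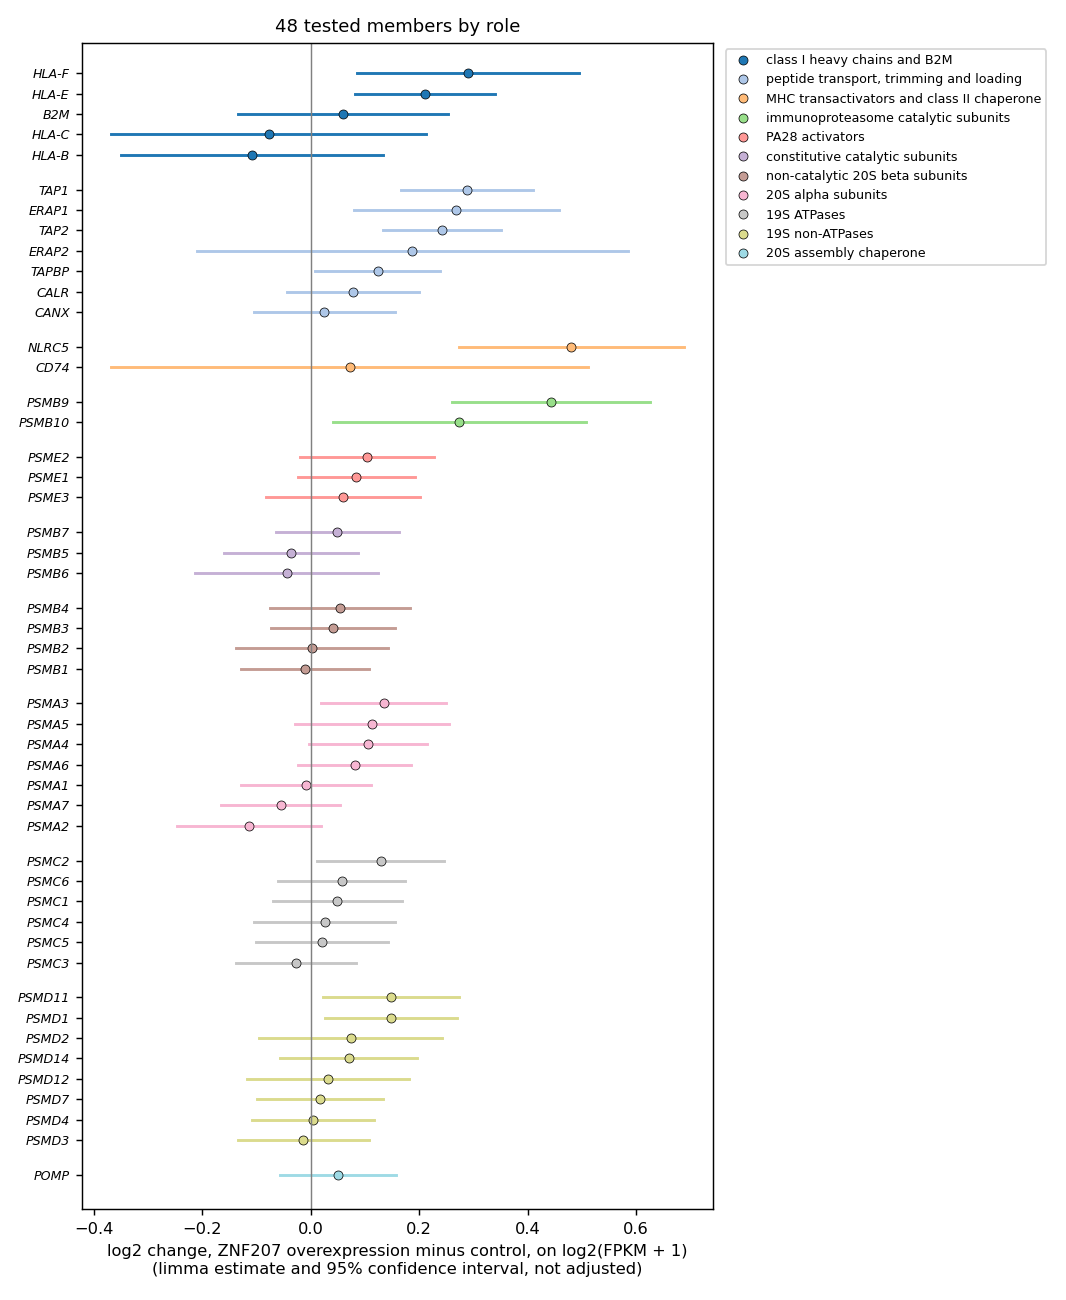
Log2 change with its 95% confidence interval (horizontal axis, ZNF207 overexpression minus control on log2(FPKM + 1)) for the 48 tested members, ordered by role from top to bottom and coloured by role. Estimates over 0.2 lie among the class I, transport, transactivator and immunoproteasome genes, and the 30 constitutive proteasome estimates lie between -0.11 and 0.15.

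The 3 immunoproteasome subunits differed among themselves. PSMB9, the induced counterpart of PSMB6, stood at 13.4, 14.3 and 15.2 FPKM in controls and at 20.6, 20.7 and 18.1 FPKM with the construct. The groups did not overlap, and the ZNF207 mean was 38.6% higher (log2 change 0.44, SE 0.08, limma adjusted p = 0.0714). PSMB10, the counterpart of PSMB7, stood at 16.9, 18.3 and 16.8 FPKM in controls and at 24.8, 21.0 and 18.2 FPKM with the construct. Here the groups overlapped, because the third ZNF207 library lay below the second control, and the log2 change was 0.27 (SE 0.10, limma adjusted p = 0.329), or 0.16 without the first ZNF207 library. PSMB8, the counterpart of PSMB5, was too low to be tested, at 0.642, 0.590 and 0.789 FPKM in controls and 0.365, 0.593 and 0.252 FPKM with the construct. Its groups overlapped between the second libraries alone, and all values were below 1 FPKM.

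Their constitutive counterparts were more abundant and differed little between groups. The gap was widest for PSMB5, at a mean of 161 FPKM in controls against 0.674 FPKM for PSMB8. PSMB5, the chymotrypsin-like subunit, had 153, 159 and 170.3 FPKM in controls and 156, 160.1 and 154 FPKM with the construct. PSMB6, the caspase-like subunit, had 77.6, 91.5 and 94.2 FPKM in controls and 86.9, 82.0 and 85.6 FPKM with the construct. PSMB7, the trypsin-like subunit, had 108, 109 and 113 FPKM in controls and 117, 109.8 and 115 FPKM with the construct. All 3 overlapped between groups, with log2 changes of -0.04, -0.04 and 0.05 and limma adjusted p of 0.844, 0.860 and 0.745. Their 95% intervals reached from -0.21 (PSMB6) to 0.16 (PSMB7), and changes within these bounds are not excluded by the data.

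Each induced subunit was then set against the subunit it replaces, within each library. PSMB9 made up 14.7%, 13.5% and 13.9% of the summed FPKM of PSMB9 and PSMB6 in controls and 19.2%, 20.2% and 17.5% with the construct (mean 14.04% ± 0.615 and 18.9% ± 1.37, SD, n = 3 each). The groups did not overlap, and the log2 ratio of the pair was higher by 0.49 (exact two-sided permutation p = 0.1, 0.15 after Benjamini-Hochberg adjustment over the 3 pairs). That p of 0.1 is the smallest that 3 libraries against 3 allow, so none of the 3 pairs could pass 0.05. PSMB10 made up 13.6%, 14.3% and 13.0% of its pair with PSMB7 in controls and 17.5%, 16.0% and 13.7% with the construct (mean 13.6% ± 0.687 and 15.7% ± 1.94, SD, n = 3 each). The groups overlapped, with a difference in log2 ratio of 0.23 (exact two-sided permutation p = 0.2, adjusted 0.2), or 0.13 without the first ZNF207 library. PSMB8 made up 0.418%, 0.371% and 0.461% of its pair with PSMB5 in controls and 0.234%, 0.369% and 0.164% with the construct, so the second libraries of both groups nearly met. Its log2 ratio was lower by 0.22 with the pseudocount of 1 and by 0.63 with one of 0.1 (difference -0.22 and -0.63, exact two-sided permutation p = 0.1, adjusted 0.15). PSMB8 was below 1 FPKM throughout, where the pseudocount sets much of the ratio.

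**Figure D2:**
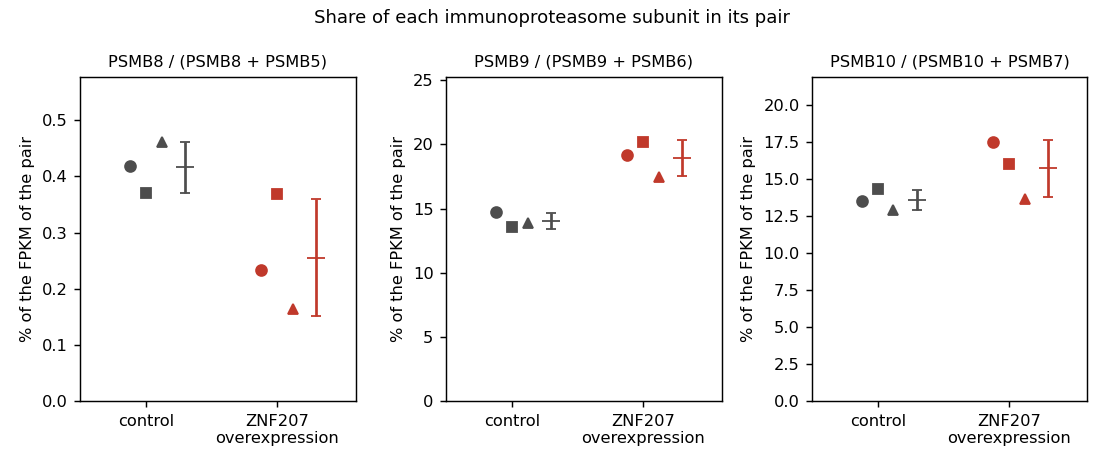
Share of each immunoproteasome subunit in the summed FPKM of the pair with its constitutive counterpart (vertical axes in percent, starting at 0), with 1 point per library and mean ± SD of 3 libraries beside them. The PSMB9 share was 13.5% to 14.7% in controls and 17.5% to 20.2% with the construct, the PSMB10 shares overlapped, and the PSMB8 share stayed under 0.5% in all 6 libraries.

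Annotated neighbours overlap PSMB9, and whether this affects its values was not tested. On GRCh38 in GENCODE v29, PSMB9 lies on chr6:32844136-32859585 on the plus strand, and its annotated span overlaps TAP1 at chr6:32845209-32853978 and PSMB8 at chr6:32840717-32844703, both on the minus strand. In RefSeq, used for the promoters below, the starts of PSMB9 and TAP1 lie 488 bases apart and face away from each other, without that overlap. The deposited table gives PSMB8, PSMB8-AS1, PSMB9 and TAP1 a single listed locus. Whether reads were counted by strand is not given in the sources used here, so reads shared by these genes cannot be assigned with certainty. The antisense gene PSMB8-AS1 had a listed value of 0 in all 3 controls and of 0.0477, 0.105 and 0.0526 FPKM with the construct, far below PSMB9 and TAP1. PSMB10 lies elsewhere, on chr16:67934502-67937087 on the minus strand.

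The transporter pair separated the groups by more than the spread between libraries. TAP1 stood at 76.4, 79.9 and 84.0 FPKM in controls and at 98.0, 95.9 and 100.1 FPKM with the construct, a mean 22.3% higher (log2 change 0.29, SE 0.05, limma adjusted p = 0.0786). TAP2, at chr6:32821833-32838780 on the minus strand, stood at 66.8, 67.8 and 67.3 FPKM in controls and at 80.5, 78.5 and 80.4 FPKM with the construct, a mean 18.6% higher (log2 change 0.24, SE 0.05, limma adjusted p = 0.0883). In both genes the lowest ZNF207 library lay well above the highest control. TAPBP encodes tapasin, which bridges the transporter and the empty class I molecule, and stood at 104, 103 and 109.8 FPKM in controls and at 119, 114 and 113 FPKM with the construct. Its groups did not overlap either, but the gap was small (log2 change 0.12, SE 0.05, limma adjusted p = 0.380). ERAP1, which trims peptides in the endoplasmic reticulum, stood at 12.8, 11.5 and 13.3 FPKM in controls and at 16.4, 14.8 and 14.7 FPKM with the construct (log2 change 0.27, SE 0.08, limma adjusted p = 0.236). Its groups did not overlap. ERAP2, the second trimming enzyme, was low, at a mean of 1.84 ± 0.568 and 2.20 ± 0.329 FPKM (SD, n = 3 each), and its groups overlapped.

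The loading chaperones CALR and CANX, which also fold most other glycoproteins, were among the most abundant members. CALR stood at 541 ± 26.5 and 570.4 ± 13.8 FPKM and CANX at 393 ± 18.8 and 400.4 ± 19.5 FPKM in controls and ZNF207 libraries (SD, n = 3 each). Their log2 changes were 0.08 and 0.03, with overlapping groups. TAPBPL, a tapasin relative, was below 1 FPKM in all libraries, from 0.297 to 0.760 FPKM, and was not tested. Of the 7 tested genes of transport, trimming and loading, all had estimates above 0, against 47.6% of all tested genes. Their median log2 change was 0.19. In 4 of them all ZNF207 libraries lay above all controls, against 7.61% of all tested genes.

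NLRC5, which drives transcription of class I genes, their transporters and B2M, had the highest log2 estimate of the 48 tested members. It stood at 6.31, 7.25 and 7.34 FPKM in controls and at 10.7, 10.1 and 9.54 FPKM with the construct, a mean 45.1% higher (log2 change 0.48, SE 0.09, limma adjusted p = 0.0829). The groups did not overlap. CIITA, its class II counterpart, was not tested, at 0.555, 0.281 and 0.436 FPKM in controls and 0.907, 0.452 and 0.480 FPKM with the construct. CD74 encodes the invariant chain of class II molecules and was grouped with the transactivators in the list. It stood at 1.36, 0.648 and 0.815 FPKM in controls and at 1.15, 1.23 and 0.712 FPKM with the construct, without separation between groups (log2 change 0.07, SE 0.20, limma adjusted p = 0.922).

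The class I molecules themselves were divided, with HLA-E and HLA-F higher in all 3 ZNF207 libraries and HLA-B, HLA-C and B2M overlapping. HLA-E, which presents leader peptides to natural killer cells, stood at 72.7, 79.3 and 81.6 FPKM in controls and at 89.9, 88.7 and 91.8 FPKM with the construct (log2 change 0.21, SE 0.06, limma adjusted p = 0.183). HLA-F, a non-classical class I gene, stood at 16.1, 14.5 and 13.0 FPKM in controls and at 18.0, 16.8 and 19.03 FPKM with the construct (log2 change 0.29, SE 0.09, limma adjusted p = 0.237). These were the 2 of 5 genes whose groups did not overlap, against 7.61% of all tested genes with all ZNF207 libraries above all controls. HLA-B, a classical class I gene, stood at 123, 93.3 and 88.4 FPKM in controls and at 91.2, 90.4 and 97.8 FPKM with the construct. The first control was the high one, the groups overlapped, and the log2 change was -0.11 (SE 0.11, limma adjusted p = 0.735), or 0.04 without that control. HLA-C, also classical, was lower in level at 7.21 ± 0.924 and 6.80 ± 1.05 FPKM (SD, n = 3 each), with a log2 change of -0.08 and overlapping groups.

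B2M, the light chain of every class I molecule, was the most abundant member, at 975, 898 and 809 FPKM in controls and at 956, 1004 and 835 FPKM with the construct. The groups overlapped, with the third library the lowest of each (log2 change 0.06, SE 0.09, limma adjusted p = 0.832). Class I heavy chain genes are highly polymorphic and alike in sequence, and the annotated span of HLA-B, chr6:31269491-31357188, overlaps that of HLA-C, chr6:31268749-31272130. How reads that fit several of these genes were assigned is not given in the sources used here, so their FPKM are uncertain.

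**Figure D3:**
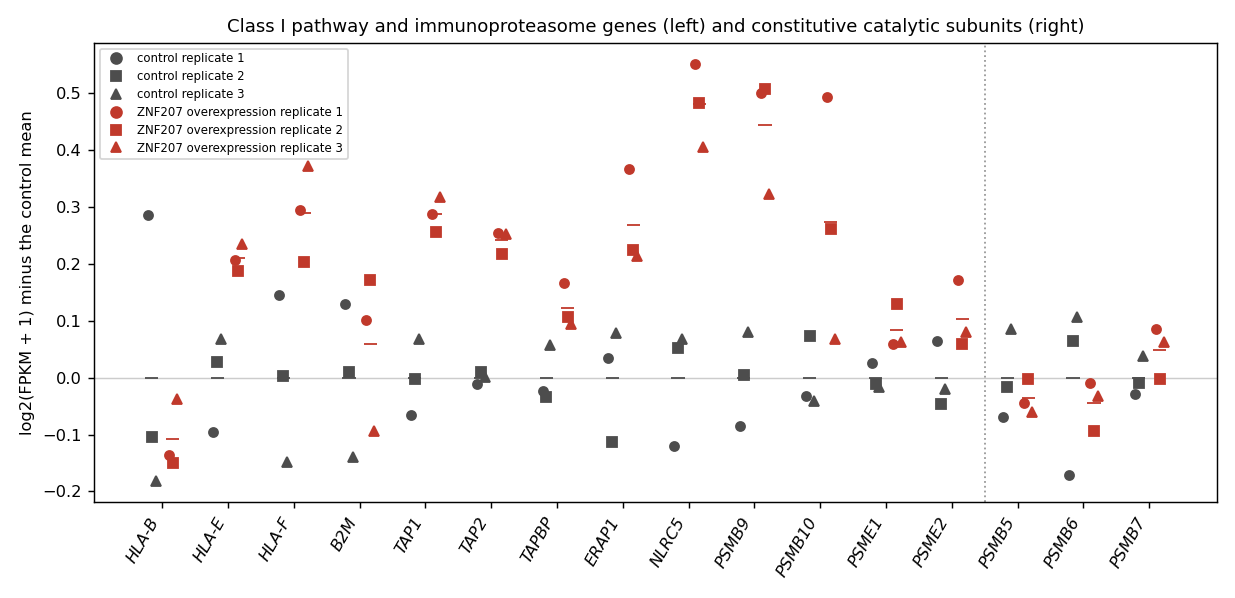
Log2(FPKM + 1) of each library minus the control mean of the gene (vertical axis) for 13 class I pathway and immunoproteasome genes and, right of the dotted line, the 3 constitutive catalytic subunits, with short bars at the group means. The ZNF207 libraries lie above all controls for HLA-E, HLA-F, TAP1, TAP2, TAPBP, ERAP1, NLRC5, PSMB9 and PSME1, and mix with them for HLA-B, B2M, PSMB10, PSME2 and the 3 subunits at the right. The tested genes HLA-C, ERAP2, CALR, CANX and CD74 of the same set are not drawn, and their groups overlapped. In the whole set 9 of 18 tested genes had all ZNF207 libraries above all controls, against 7.61% of all tested genes.

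The PA28 activators open the core without the 19S particle. PSME1 stood at 146, 142 and 141 FPKM in controls and at 149, 156 and 149 FPKM with the construct, with no overlap and a log2 change of 0.08 (SE 0.05, limma adjusted p = 0.525). PSME2, which forms a ring with PSME1, stood at 146, 135 and 137 FPKM in controls and at 157, 145 and 147 FPKM with the construct, with overlap and a log2 change of 0.10 (SE 0.05, limma adjusted p = 0.492). Both genes lie 4395 bases apart on chromosome 14. PSME3, which forms a nuclear activator of its own, had a log2 change of 0.06 (limma adjusted p = 0.754). None of the 3 was higher at an unadjusted p under 0.05, against 5.08% of all tested genes.

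Promoter sequences were searched for elements known from interferon-induced genes, in RefSeq windows on GRCh38.p14 that run from 250 bases before to 50 bases after each start. In all, 43 of the 51 members had a window, 18 of them class I and immunoproteasome genes and 25 constitutive genes. CIITA, HLA-E, NLRC5, PSMA7, PSMB1, PSMB6, PSMB7 and PSMD4 are named only. The core of the interferon-stimulated response element, bound by interferon regulatory factors, was searched as GAAANNGAAA on both strands. It was present in 11 of 18 class I and immunoproteasome genes and in 2 of 25 constitutive genes, against 4.38% of 27305 genes with such a window. Each match is given within 30 bases on the strand of its gene, with the matching bases in capitals. The capitals are alike because the search fixed their letters, apart from those written N. Capitals that begin with TTTC are matches on the other strand.
TAP1, chr6:32853816-32853845, minus strand: cggccgcTTTCGATTTCGCTTTCccctaaa
TAP2, chr6:32838778-32838807, minus strand: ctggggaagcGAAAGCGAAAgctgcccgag
TAPBP, chr6:33314076-33314105, minus strand: tttggagGAAAGTGAAAGTGAAAggaggaa
ERAP1, chr5:96807924-96807953, minus strand: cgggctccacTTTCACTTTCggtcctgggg
ERAP2, chr5:96876460-96876489, plus strand: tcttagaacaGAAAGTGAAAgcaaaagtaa
HLA-F, chr6:29723268-29723297, plus strand: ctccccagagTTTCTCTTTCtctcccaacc
B2M, chr15:44711366-44711395, plus strand: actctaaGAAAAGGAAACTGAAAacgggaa
PSMB8, chr6:32844032-32844061, minus strand: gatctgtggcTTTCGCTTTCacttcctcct
PSMB10, chr16:67936852-67936881, minus strand: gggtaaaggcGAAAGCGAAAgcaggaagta
PSME1, chr14:24136189-24136218, plus strand: gccctaccgcTTTCGCTTTCccttcgcggt
PSME2, chr14:24146619-24146648, minus strand: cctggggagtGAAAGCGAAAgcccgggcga
PSMA4, chr15:78540155-78540184, plus strand: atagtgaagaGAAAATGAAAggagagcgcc
PSMB4, chr1:151399495-151399524, plus strand: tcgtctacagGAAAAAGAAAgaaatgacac

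TAP1, TAPBP and B2M each held 2 overlapping matches. The matches began 134 bases before the TAP1 start, 58 before that of TAP2, 21 before that of PSMB10, 28 before that of PSME2, 20 before that of TAPBP and 144 before that of B2M. In PSMB8 the match began 4 bases before the start and ran across it, and in ERAP1 and PSME1 it lay just after the start. PSMA4, an α ring subunit, and PSMB4, a non-catalytic β ring subunit, were the 2 constitutive genes with the core, 240 and 68 bases before their starts.

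The window of PSMB9 held no match to the core. The PSMB9 and TAP1 starts lie 488 bases apart and face away from each other, and the TAP1 matches lie 354 to 369 bases from the PSMB9 start, outside its window. The 30 bases just before the starts of PSMB9 and of PSMB5 are given for comparison with those above.
PSMB9, chr6:32854162-32854191, plus strand: cgcgttgtgcgctgtcccaggttggaaacc
PSMB5, chr14:23035221-23035250, minus strand: gattttcaaccagtcacgcccttctcaaag

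Presence of the core did not order the estimates simply. The 10 tested class I and immunoproteasome genes with it had a median log2 change of 0.21, from 0.06 (B2M) to 0.29 (HLA-F). The 6 tested genes with a window but no match had a median of 0.05, from -0.11 (HLA-B) to 0.44 (PSMB9). Over all 9704 tested genes with a window, the median was 0.04 for the 373 with the core and -0.01 for the others. PSMB8 carried the core and was below 1 FPKM in all libraries. A match of letters does not show that a factor binds there.

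**Figure D4:**
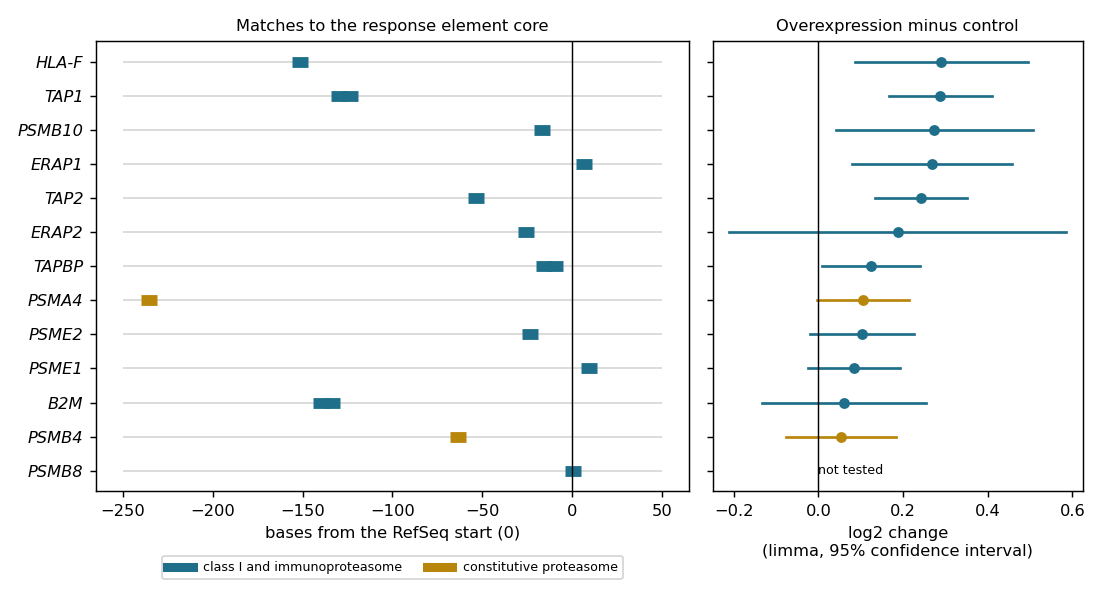
Position of each match to the response element core (left, in bases from the RefSeq start at 0, windows drawn in grey) in the 13 members that held one, beside the log2 change of the gene with its 95% confidence interval (right). Matches fall at different distances from the start. The 12 tested genes with a match had estimates above 0, against 47.6% of all tested genes. Their intervals include 0 for ERAP2, PSMA4, PSME2, PSME1, B2M and PSMB4.

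Other short motifs were spread differently. The core of the κB site, bound by NF-κB, was searched as GGGNNTTTCC on both strands. It was found in B2M, CD74, TAP1, TAPBP and TAPBPL, 5 of 18 class I and immunoproteasome genes, in 0 of 25 constitutive genes and in 2.33% of all genes. The core of the antioxidant response element, bound by NFE2L1 and its relatives that drive proteasome genes, was searched as TGACNNNGC on both strands. It was found in 5 of 18 and in 7 of 25 genes of the 2 sets, against 16.1% of all genes. The CCAAT box, bound by the NFY complex, was found in 10 of 18 and in 14 of 25, against 39.7% of all genes. In the class I set, tested members with the κB, antioxidant or CCAAT letters did not have higher median estimates than those without. The medians were 0.10 (4 genes) against 0.15 (12), 0.08 (5) against 0.19 (11) and 0.08 (10) against 0.16 (6). Some genes without these letters held the interferon core, and no effect of a motif was tested.

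In the 20S core the α ring held the genes with the clearest separation. PSMA3 stood at 258, 257 and 278 FPKM in controls and at 287, 287 and 296 FPKM with the construct (log2 change 0.13, SE 0.05, limma adjusted p = 0.330). PSMA4 stood at 244, 258 and 249.7 FPKM in controls and at 275, 269 and 264 FPKM with the construct (log2 change 0.11, SE 0.05, limma adjusted p = 0.422). In both the groups did not overlap, as in PSMA6, at 264 ± 4.04 and 279 ± 5.48 FPKM (SD, n = 3 each). PSMA2 had the lowest estimate of the 30 constitutive genes, -0.11 (limma adjusted p = 0.487), with overlapping groups at 90.5 ± 3.79 and 83.6 ± 4.49 FPKM (SD, n = 3 each). PSMA1, PSMA5 and PSMA7 overlapped as well.

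The non-catalytic β subunits all overlapped between groups, with estimates from -0.01 (PSMB1) to 0.05 (PSMB4). PSMB4 stood at 504, 569 and 554 FPKM in controls and at 554, 561 and 571 FPKM with the construct, and PSMB3 at 113, 117 and 119 FPKM and at 122, 115 and 122 FPKM. Over the 14 constitutive core subunits the median log2 change was 0.02 and in 3 all ZNF207 libraries lay above all controls, against 7.61% of all tested genes. POMP, the chaperone that assembles new cores, including immunoproteasomes, stood at 169, 172 and 176 FPKM in controls and at 174, 180.1 and 182 FPKM with the construct (log2 change 0.05, SE 0.05, limma adjusted p = 0.718).

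The ATPases of the 19S base unfold substrates and feed them to the core. PSMC2 stood at 141, 142 and 151 FPKM in controls and at 153, 159 and 162 FPKM with the construct, without overlap (log2 change 0.13, SE 0.05, limma adjusted p = 0.354). PSMC6 stood at 80.9, 80.6 and 78.1 FPKM in controls and at 86.9, 81.5 and 81.0 FPKM with the construct, also without overlap but with a gap under 1 FPKM (log2 change 0.06, limma adjusted p = 0.711). The other 4 ATPases overlapped, with estimates from -0.03 (PSMC3) to 0.05 (PSMC1).

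Of the 8 non-ATPase subunits PSMD1 and PSMD11 had the lowest p. PSMD1, a large scaffold of the base, stood at 39.5, 39.1 and 39.2 FPKM in controls and at 43.4, 42.5 and 45.2 FPKM with the construct (log2 change 0.15, SE 0.05, limma adjusted p = 0.317). PSMD11, a lid subunit, had 50.7, 50.1 and 51.5 FPKM in controls and 56.9, 58.8 and 53.6 FPKM with the construct (log2 change 0.15, SE 0.06, limma adjusted p = 0.327). Neither gene overlapped between groups. PSMD11 lies 62.4 kb from ZNF207 on chromosome 17, and no role of that position was tested. The ubiquitin receptor PSMD4, at 237 ± 4.78 and 237 ± 8.88 FPKM, and the deubiquitinase PSMD14, at 74.8 ± 2.80 and 78.6 ± 3.27 FPKM (SD, n = 3 each), overlapped. Over the 14 subunits of the 19S particle listed, the median log2 change was 0.04 and in 4 all ZNF207 libraries lay above all controls, against 7.61% of all tested genes.

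FPKM, which is scaled by length, also allows levels to be compared between subunits of a complex. The 14 core subunits spanned 10.6-fold in mean FPKM over all libraries, from 52.3 for PSMB2 to 552 for PSMB4, with a median of 138. The 14 subunits of the 19S particle spanned 5.71-fold, from 41.5 for PSMD1 to 237 for PSMD4, with a median of 92.8. Induced subunits sat below the core's lowest constitutive subunit, PSMB9 at a mean of 17.1, PSMB10 at 19.3 and PSMB8 at 0.539 FPKM. Processed pseudogenes can share reads with proteasome genes, and 12 members had pseudogenes named after them in the table. The most abundant of these, PSMC1P1, had a mean of 1.27 FPKM, 0.875% of the level of PSMC1.

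**Figure D5:**
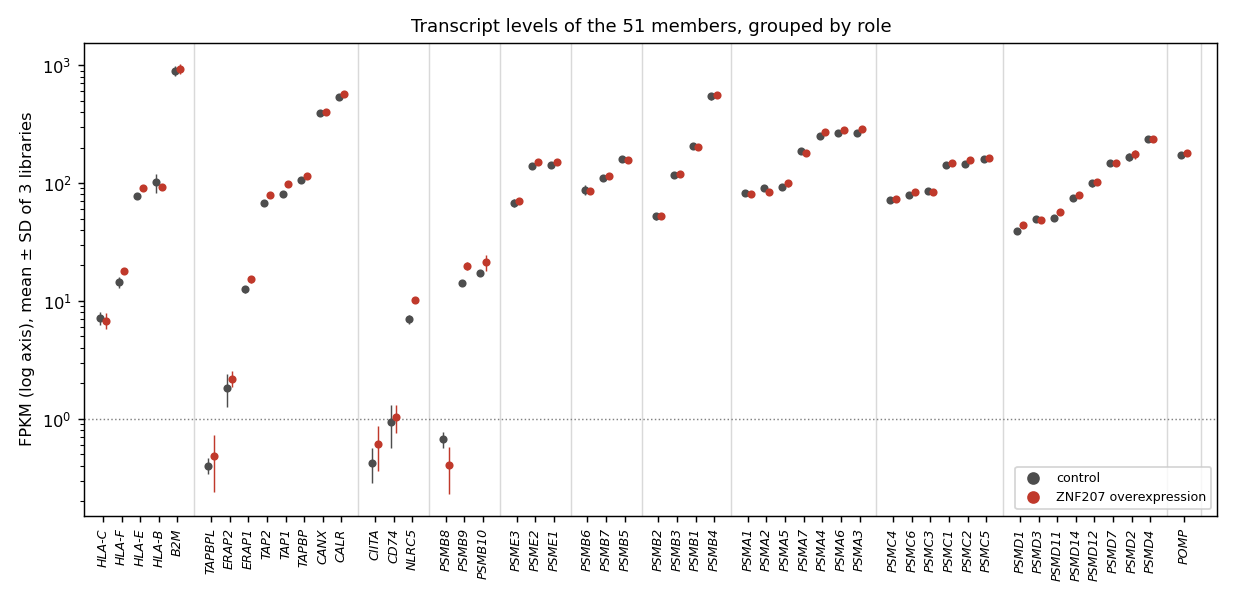
Mean FPKM ± SD of 3 libraries on a log axis for all 51 members in controls (grey) and ZNF207 libraries (red), grouped by role and ordered by level within a role. TAPBPL, CIITA and PSMB8 lie below the dotted line at 1 FPKM in both groups, and the constitutive 20S and 19S subunits lie between 39.3 and 562 FPKM.

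Library by library, the class I and immunoproteasome set was above its 6-library mean in all 3 ZNF207 libraries and below it in all 3 controls. The median deviation of its 18 tested genes from their means over all 6 libraries was -0.08, -0.10 and -0.10 on the log2 scale in the 3 controls. With the construct it was 0.12, 0.09 and 0.06, and 16, 15 and 14 of the 18 genes lay above the control mean. The share of all tested genes above their control means was not computed. Centring on the 6-library mean makes the mean deviations of a gene in the 2 groups mirror each other. These values therefore restate the contrast given above, library by library. For the 30 constitutive genes the medians were -0.05, -0.02 and 0.01 in controls and 0.03, 0.01 and 0.02 with the construct, with 21, 18 and 20 of 30 above the control mean. Control libraries themselves differed here: the first control was the lowest of the 3 for 17 of the 30 constitutive genes, and the third the highest for 18. The third control had a median for these genes close to that of the second ZNF207 library.

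Other genes of the same pathways, none of them members, gave 0 called genes in each of 5 lists. Among 21 interferon signalling genes and MHC promoter factors, 4 were higher and 0 were lower when an unadjusted p under 0.05 was asked for, the estimates split 10 above and 11 below 0, and the median was -0.01. Over all tested genes 5.08% were higher and 7.03% lower by the same criterion, and the counts in the lists that follow are read against these shares. The 2 with the lowest p were RFX5, part of the complex that recruits NLRC5 and CIITA, at 46.0 ± 4.72 and 56.0 ± 6.60 FPKM with overlap, and IRF1, an interferon regulatory factor, at 33.6 ± 1.43 and 37.8 ± 0.970 FPKM without overlap (SD, n = 3 each). Their limma adjusted p were 0.300 and 0.305.

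Among 11 tested genes of other class I and peptide processing steps the median log2 change was 0.04, and an unadjusted p under 0.05 was reached by 1 higher and 1 lower gene. PDIA3, a disulfide isomerase of the loading complex, was the lower one, at 195 ± 10.7 and 160.3 ± 9.01 FPKM without overlap (SD, n = 3 each, log2 change -0.28, limma adjusted p = 0.108). MR1, a class I-like molecule that presents vitamin B metabolites, had a log2 change of 0.21 (limma adjusted p = 0.292). Of 12 class II genes only 4 could be tested, and the 2 with the lowest p were HLA-DMA, which edits class II peptides, at 2.45 ± 0.209 and 3.79 ± 0.701 FPKM, and IFI30, a lysosomal thiol reductase, at 311 ± 31.6 and 359 ± 21.0 FPKM (SD, n = 3 each). Neither overlapped between groups, against 7.61% of all tested genes with all ZNF207 libraries above all controls. Both were higher at an unadjusted p under 0.05, with limma adjusted p of 0.228 and 0.329. The other 2 tested genes had estimates below 0 and overlapping groups, HLA-DRB1 at -0.16 and HLA-DQB1 at -0.11. The median log2 change of the 4 was 0.05.

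Among 22 tested proteasome genes outside the 51 the median log2 change was -0.01, and an unadjusted p under 0.05 was reached by 0 higher genes and 1 lower gene. The lower one was PSMG3, a core assembly chaperone, with a log2 change of -0.26 (limma adjusted p = 0.153), and NFE2L1, the factor that raises proteasome genes when the proteasome is inhibited, came next at -0.11 (limma adjusted p = 0.544). Of 12 ubiquitin and shuttle genes 1 reached an unadjusted p under 0.05, UBB, one of the polyubiquitin genes, whose groups overlapped (log2 change 0.15, limma adjusted p = 0.361). UBQLN1, a shuttle to the proteasome, came next at 0.13 (limma adjusted p = 0.450). The median of this list was 0.00.

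The non-members most like PSMB9 over the 6 libraries, by Pearson correlation of log2(FPKM + 1), were DIMT1 (r = 0.992), RSAD2 (0.981), SLC30A6 (0.981), SNAP25 (0.978) and FECH (0.977). The 6 libraries hold 2 groups, so each r includes the difference between them, and the values are a description without a test. PSMB9 itself separated the groups, so genes chosen for likeness to it tend to separate them too, and all of those named did. Their log2 changes were 0.24 (DIMT1), 0.17 (SLC30A6), 0.36 (SNAP25) and 0.25 (FECH), with limma adjusted p of 0.160, 0.324, 0.323 and 0.114, and RSAD2 follows. RSAD2, an interferon-induced antiviral enzyme, stood at 4.29, 5.38 and 5.69 FPKM in controls and at 8.35, 9.33 and 7.83 FPKM with the construct, without overlap (log2 change 0.64, limma adjusted p = 0.0714).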

How the data were processed

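RNA-seq of 6 MDA-MB-453 libraries was analysed from 1 deposited table of FPKM values with 60658 rows. The tools named in the submitters' processing notes are DESeq2 1.4.5, RSEM 1.3.1 and Bowtie2, with genome build hg38. The sources used here do not give what each did, the annotation, strandedness or filters. FPKM are not counts, so depth is unknown, no intervals for counting error are given and no count test was run. Columns of both groups were matched to samples by name.

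Values were transformed to log2(FPKM + 1), and genes at 1 FPKM or more in at least 3 of 6 libraries were kept. The 2 groups were contrasted in limma 3.58.1 (R 4.3.3, mean-variance trend, no covariates, two-sided, Benjamini-Hochberg adjustment), tested on simulated data first. Ratios of subunits were compared by exact permutation over libraries (SciPy 1.17.1). Gene positions come from GENCODE v29 (GRCh38) and promoters from RefSeq (GRCh38.p14).

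The members, the other gene lists and the motifs were chosen with earlier results of these data known. Any member could be named, with values in every library for the catalytic, class I and activator genes of a fixed list and for the 2 members with the lowest p in each other role. Of each other list, the 2 genes with the lowest p were named, and the 5 non-members with the highest correlation with PSMB9. PSMB8, TAPBPL and CIITA stayed below the filter. Alternatives were pseudocount, filter, scaling, variance trend, a replicate block and leaving out each library.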

Additional observations from a re-analysis of the deposited data

How the results depend on the processing

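The count of genes called among all tested, 28, was 4 without a filter, 64 with a filter at 5 FPKM, 18 with median-of-ratios scaling, 5 without the variance trend and 4 to 36 when 1 library was left out (9 without control replicate 2, 14 without control replicate 3, 9 without overexpression replicate 1, 15 without replicate 2 of that group and 4 without its replicate 3). With a replicate block 145 genes were called. Same-numbered libraries correlated at 0.136, 0.00881 and 0.175 in their deviations, and the second pair correlated less than control 2 did with overexpression 1 (0.0705), so not every library correlated best with its own number and the numbers were not taken to pair the libraries. Among members, 1 was called with the filter at 5 FPKM (PSMB9, limma adjusted p = 0.0434, range over 16 alternatives 0.0434 to 0.281) and 1 with the replicate block (TAP1, limma adjusted p = 0.0359, range 0.0359 to 0.249), and 0 under each other alternative. The median log2 change of the class I and immunoproteasome set, 0.16, was 0.12 without a filter, 0.19 as TPM, 0.19 after quantile scaling and 0.094 to 0.19 when 1 library was left out, with 0.094 without control replicate 2. That of the constitutive set was 0.03 to 0.06 when 1 library was left out. Of 35 genes followed, 5 changed sign when 1 library was left out: PSMB5 (-0.070 to 0.0070), PSMB6 (-0.13 to 0.0085) and B2M (-0.0099 to 0.14) without control replicate 3, HLA-B (-0.20 to 0.035) without control replicate 1 and CD74 (-0.038 to 0.19) without control replicate 2. The causes were not tested. The log2 ratio of PSMB9 to PSMB6 differed by 0.43 to 0.56 when 1 library was left out (exact two-sided permutation p = 0.2, the smallest that 3 against 2 allow).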
